A study of Mus musculus with 8 samples.

Results

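The nuclear genes of the respiratory chain were taken as the genes whose symbol starts with Nduf, Sdha to Sdhd, Uqcr, Cox4 to Cox8 or Atp5, together with Cyc1 and Cycs. Each gene was represented by its probe set of highest mean, and 2 pseudogenes (Atp5c1-ps and Uqcrh-ps1) were dropped. The rule gave 93 of the 22180 genes named by a single symbol. By complex these were 32 subunits of complex I, 4 of complex II, 8 of complex III, 18 of complex IV and 17 of complex V, cytochrome c (Cycs), the supercomplex factor Cox7a2l and 12 assembly factors that share the prefixes. Another 8 symbols that begin in the same way (Cox6c, Ndufb2, Ndufb4, Ndufb4b, Ndufb4c, Ndufs6, Ndufs6b and Uqcr10) occur only on probe sets shared with other symbols and were not used here.

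The mice were C57BL/6J males 14 weeks of age, and the tissue was brown fat. They had been fasted overnight and then given chow for 1 h. Wild-type (WT) mice supplied 3 arrays, and mice with a deleted Abhd15 gene, which encodes a hydrolase-fold protein of fat cells, supplied 5 (the labelled knockouts). Each Affymetrix Mouse Gene 2.0 ST array held RNA of 1 mouse, and values are log2 signals per probe set, so that a difference of 1 is a 2-fold change. The labels give no litter, cage or harvest day, and they do not say which part of Abhd15 was deleted.

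Respiratory complexes I and II pass electrons to ubiquinone, complex III passes them through cytochrome c to complex IV, which reduces oxygen, and complex V makes ATP from the proton gradient that complexes I, III and IV build. In brown adipocytes UCP1 lets protons back across the inner membrane, so that respiration yields heat, and these cells hold many mitochondria and comparatively little ATP synthase. Most subunits are encoded in the nucleus, and several subunits of complex IV exist as a widespread isoform and a second one used in heart, skeletal muscle or brown fat.

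The targeted gene, Abhd15, was no lower in the labelled knockouts, where it read 6.12 ± 0.27 log2 (SD, n = 5) against 6.01 ± 0.19 in WT (SD, n = 3; difference 0.11, 95% confidence interval −0.27 to 0.49). The labels do not say whether this probe set lies in the deleted part, so its signal cannot check the genotypes. The directions below rest on the labels. Brown fat markers were high: Ucp1 read 12.51 to 12.89 and Cidea 12.02 to 12.19 over the 8 arrays, and all 10 brown fat markers measured lay above the dim limit of 2.88 in every array. Skeletal muscle genes varied widely between mice, with a mean over 32 genes of 4.98 to 7.79 in WT and 4.42 to 7.02 in the labelled knockouts. WT replicate 1 was the highest in muscle genes and Abhd15 KO replicate 2 the lowest. WT replicate 2 and Abhd15 KO replicate 1 stood apart in Angptl8, a feeding-induced regulator of lipoprotein lipase (7.95 and 7.90 against 10.42 to 10.81 in the other arrays). Results on the respiratory chain are therefore also given without these pairs of arrays where their direction changed.

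The comparison of the 2 genotypes asks whether loss of ABHD15 alters the transcripts of the respiratory chain in brown fat soon after feeding. No respiratory chain gene passed the test. Of the 93 genes 91 lay above the dim limit in at least 3 arrays and were tested, and with limma 0 of them had an adjusted p under 0.05, as had 0% of the 13223 genes tested (adjusted p = 0.9997 for each respiratory chain gene). The testis isoforms Cox7b2 (1.70 to 2.13) and Cox8c (1.67 to 2.25) were below the limit in every array. Atp5g1, 1 of 3 genes for the membrane ring of ATP synthase, passed the limit only through 4 labelled knockouts and is left out of the counts that follow. It read 2.39, 2.28 and 2.81 in WT and 3.06, 3.14, 3.66, 2.76 and 3.07 in the labelled knockouts, and no fold change is given.

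The other 90 genes divided into 49 higher and 41 lower in the labelled knockouts, with a median difference of 0.01, beside a median of 0.01 over all genes tested. At an unadjusted limma p under 0.05 there was 1 of these 90 genes (Cox7c, 1.11%), which was higher, against 3.99% of all genes tested (2.23% higher and 1.76% lower). The groups did not overlap in 1 gene, the assembly factor Ndufaf1 (1.11%), also higher, against 2.77% of all genes tested (1.58% higher and 1.19% lower). Each of these shares of the 90 genes rests on 1 gene, and its distance from the share over all genes was not tested. The precision was enough to bound most changes: the 95% confidence interval lay within a 1.5-fold change either way for 83 of the 90 genes. The same held for 8635 of the 13223 genes tested. Such intervals are limma's and carry no correction for how many genes were tested.

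**Figure D1:**
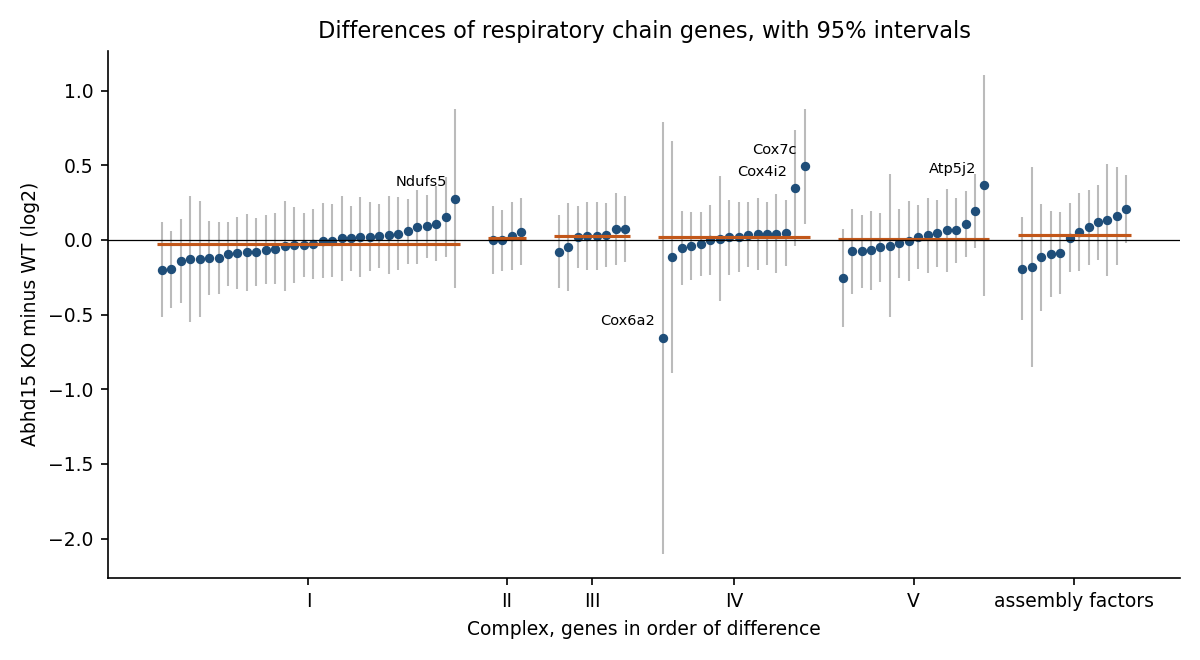
Difference between the labelled knockouts (n = 5) and WT (n = 3) on the log2 scale for 88 tested respiratory chain genes (Cycs, Cox7a2l and Atp5g1 not drawn). Points are genes in order of difference within each complex, grey lines are 95% confidence intervals from limma, and orange bars are medians. Nearly all points lie close to 0, with Cox7c at 0.49 and Cox6a2 at −0.66 farthest from it.

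The chain varied little from mouse to mouse. The residual SD within groups had a median of 0.10 log2 over the 90 genes and 0.23 over all genes tested. It was 0.08 over 15 citric acid cycle genes and 0.04 over 10 mitochondrially encoded subunits, so a low spread was not particular to the chain. Bright probe sets varied less, so genes with a mean above 9 log2 were also taken alone. There the median residual SD was 0.08 for 48 respiratory chain genes and 0.12 for all 657 tested genes of that brightness. Sdha, the flavoprotein of complex II, spanned only 0.07 log2 over the 8 arrays (11.99 to 12.06), and cytochrome c (Cycs) spanned 0.09 (11.76 to 11.85). At the other end 7 of the 90 genes spanned over 1 log2: Cox6a2, Ndufaf2, Atp5j2, Ndufs5, Cox6b2, Atp5o and Cox7c. Each of these had a mean below 9 log2, and Ndufs5, Cox6b2 and Cox4i2 came within 1 log2 of the dim limit in the mean of a group.

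**Figure D2:**
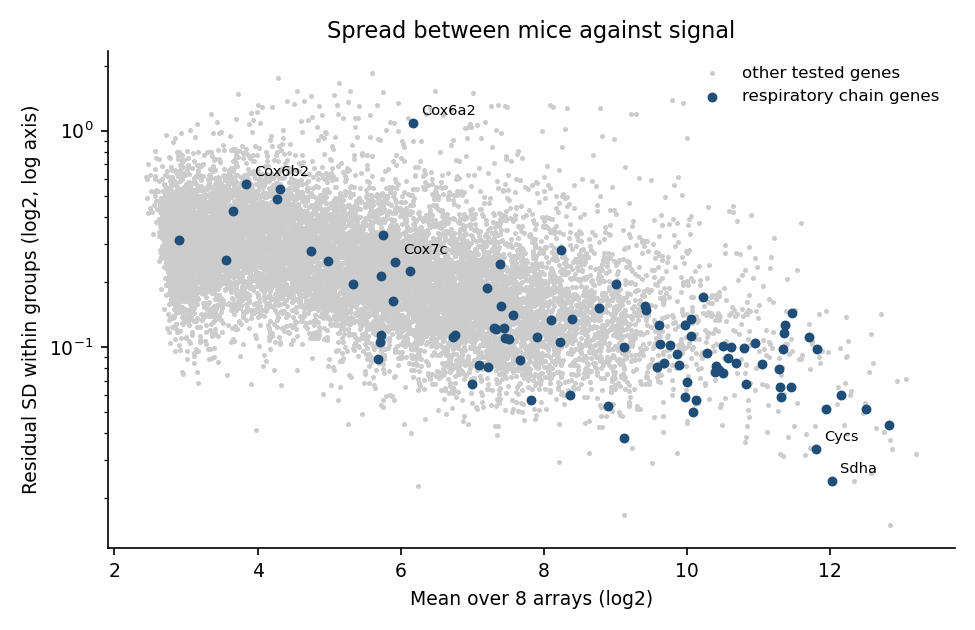
Residual SD within groups (log2, log axis) against the mean over 8 arrays for the 13223 genes tested, with the 91 respiratory chain genes, Atp5g1 included, in blue. Bright subunits such as Sdha and Cycs lie at the lower edge, and Cox6a2 lies near the upper edge for its signal.

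Complex I, the NADH dehydrogenase, had 13 subunits higher and 19 lower, with a median difference of −0.03 (range −0.20 to 0.28). Of its core subunits, which carry the flavin and the iron-sulphur clusters, 6 were among the genes chosen. Ndufs1, Ndufs3, Ndufs7, Ndufs8, Ndufv1 and Ndufv2 all differed by under 0.1, from −0.09 for Ndufs7 to 0.09 for Ndufs1. Ndufv1, which binds NADH, read 10.58, 10.56 and 10.61 in WT and 10.64, 10.66, 10.40, 10.59 and 10.50 in the labelled knockouts. All 3 WT values lay inside the range of the other group.

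The complex I genes of lowest p were all accessory subunits, which surround the core. Ndufa7 read 7.34, 7.59 and 7.44 in WT and 7.45, 7.28, 7.22, 7.13 and 7.22 in the labelled knockouts (difference −0.20, 95% confidence interval −0.45 to 0.06, exact two-sided permutation p = 0.0893). One array labelled Abhd15 KO, replicate 1, lay inside the WT range. Ndufb7 read 7.06, 7.41 and 7.52 in WT and 7.36, 7.18, 7.15, 6.96 and 7.01 in the other group (−0.20, −0.52 to 0.12, exact permutation p = 0.214). WT replicate 1 was among its low values. Ndufb3 differed by 0.15 (−0.12 to 0.42), Ndufa11 by −0.14 (−0.42 to 0.14), Ndufa2 by −0.12 (−0.36 to 0.12) and Ndufc1 by −0.12 (−0.37 to 0.13). Ndufs5 had the largest estimate of this complex, 0.28 (−0.32 to 0.88), at a level of 3.48 ± 0.17 in WT (SD, n = 3) and 3.75 ± 0.51 in the labelled knockouts (SD, n = 5). Abhd15 KO replicate 2 alone read 4.52 there, and the other 7 arrays lay between 3.14 and 3.82. Without that array the difference was 0.09.

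Complex II, succinate dehydrogenase, is the one complex with no mitochondrially encoded subunit and is shared with the citric acid cycle. Its 4 subunits had a median residual SD of 0.08. Sdha differed by −0.00067 (−0.21 to 0.20), Sdhb, the iron-sulphur subunit, by −0.0015 (−0.23 to 0.23), and the membrane anchors Sdhc and Sdhd by 0.02 (−0.20 to 0.25) and 0.06 (−0.17 to 0.28). Every interval lay within a 1.5-fold change.

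Complex III had 6 of 8 genes higher, with a median of 0.03 and a range from −0.08 to 0.07. Cyc1, the cytochrome c1 subunit, read 9.79, 9.93 and 9.89 in WT and 9.94, 10.02, 9.79, 9.88 and 9.85 in the labelled knockouts (0.03, −0.20 to 0.26, exact permutation p = 0.661). The genes of lowest p were the core protein Uqcrc2 (0.07, −0.15 to 0.29), the small subunit Uqcr11 (−0.08, −0.32 to 0.17) and Uqcrb (0.07, −0.17 to 0.31). The Rieske iron-sulphur protein Uqcrfs1 differed by 0.03 (−0.18 to 0.25). Cycs, the mobile carrier to complex IV, differed by 0.01 (−0.20 to 0.21). It had 5 probe sets, of which a pair held identical values on every array, and the 5 differed between groups by −0.01 to 0.08.

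Complex IV, cytochrome c oxidase, held both the highest and the most negative difference among the 90 genes, those of Cox7c and Cox6a2. It was counted with Ndufa4, now placed in this complex, and its paralogue Ndufa4l2. Of 16 tested genes 11 were higher and 5 lower, with a median of 0.02. Cox7c, a small subunit, read 5.62, 5.38 and 5.82 in WT and 6.11, 6.30, 5.78, 6.40 and 5.91 in the labelled knockouts. Replicate 3 of the labelled knockouts lay below WT replicate 3, so that the groups overlapped. The difference was 0.49 (0.11 to 0.88), a 1.41-fold higher level, which did not pass (limma adjusted p = 0.9997, exact permutation p = 0.0536). It stayed between 0.38 and 0.60 when each array was left out in turn. The other small and structural subunits with signal above 9 log2 had smaller differences: Cox5a differed by 0.05 (−0.17 to 0.27) and Ndufa4 by 0.02 (−0.23 to 0.27).

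Complex V, the ATP synthase, had 8 genes higher and 8 lower without Atp5g1, with a median of 0.01. The catalytic subunit Atp5b differed by 0.02 (−0.19 to 0.23) and Atp5a1, its partner in the hexamer, by 0.07 (−0.15 to 0.28). Atp5c1, the rotating central shaft, read 5.54, 5.67 and 5.54 in WT and 5.90, 5.77, 5.71, 5.62 and 5.89 in the labelled knockouts. Only replicate 4 of that group fell inside the WT range, and the difference was 0.19 (−0.05 to 0.44, exact permutation p = 0.0714). Atp5e, the small epsilon subunit of the shaft, differed by −0.25 (−0.58 to 0.08), and its second probe set gave a similar −0.24. Atp5j2 in the membrane part had an estimate of 0.37 (−0.37 to 1.11) with a residual SD of 0.54. Of the other genes for the membrane ring, Atp5g2 differed by 0.11 (−0.11 to 0.33) and Atp5g3 by −0.02 (−0.25 to 0.21).

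The 12 assembly factors with these prefixes are not part of the finished complexes. Ndufaf1, which helps to build the membrane arm of complex I, read 7.02, 7.20 and 7.06 in WT and 7.24, 7.34, 7.21, 7.32 and 7.40 in the labelled knockouts. All 5 of the latter lay above all 3 WT values. The difference was 0.21 (−0.02 to 0.44, exact permutation p = 0.0179, the smallest that 56 splits allow), and it did not pass (limma adjusted p = 0.9997). Sdhaf4, an assembly factor of complex II, differed by −0.19 (−0.54 to 0.16). Ndufaf2 spanned 1.55 log2 without separating the groups (−0.18, −0.85 to 0.49).

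**Figure D3:**
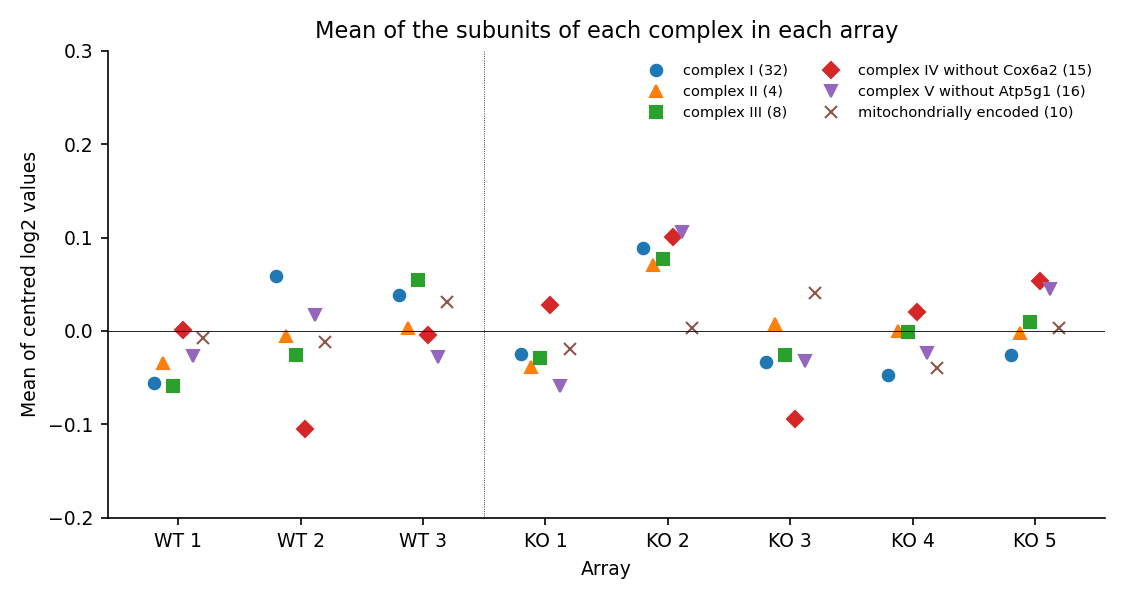
Mean over the subunits of each complex in each array, with Cox6a2 left out of complex IV and Atp5g1 out of complex V, after each gene was centred on its mean over the 8 arrays (log2), with the mitochondrially encoded subunits as crosses. All means lie between −0.11 and 0.11, the 5 nuclear sets as drawn are all highest in Abhd15 KO replicate 2, and the dotted line divides WT from the labelled knockouts.

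Averaged over each complex, the arrays spanned 0.11 to 0.21 log2. Complex I ranged from −0.06 in WT replicate 1 to 0.09 in Abhd15 KO replicate 2, complex II from −0.04 to 0.07, complex III from −0.06 to 0.08 and complex V without Atp5g1 from −0.06 to 0.11. Complex IV without Cox6a2 ranged from −0.11 in WT replicate 2 to 0.10 in Abhd15 KO replicate 2. With Cox6a2 included, complex IV was highest in WT replicate 1 (0.11) and stood at −0.02 in Abhd15 KO replicate 2. Abhd15 KO replicate 2 had the highest mean in the other 4 complexes and in complex IV without Cox6a2. Among the 90 genes it held the highest value of 27 and the lowest of 2, and WT replicate 2 held the highest of 17. The lowest value lay in WT replicate 1 for 21 genes and in Abhd15 KO replicate 1 for 20. Abhd15 KO replicate 2 and WT replicate 1 were the lowest and the highest in muscle genes, while Abhd15 KO replicate 1 was near the middle (−0.11 around the mean). Without the arrays extreme in muscle genes, 37 of the 90 genes were higher and the median difference was −0.02. The correlation with the muscle mean over the 8 arrays was below 0 in 69 of the 90 genes (76.7%, median r −0.24) and in 53.5% of all genes tested (median r −0.04). Without WT replicate 1 and Abhd15 KO replicate 2, r was taken only for the complex IV isoforms described below. Of those with r below 0, it turned positive for Cox7a1 (0.11), Cox7a2 (0.20), Cox8b (0.33), Cox4i1 (0.18) and Cox6b1 (0.38). It stayed negative for Cox8a (−0.35), Cox6a1 (−0.48) and Cox6b2 (−0.38). The part of muscle RNA in these small shifts was not tested.

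Tissue isoforms of complex IV were followed in pairs. COX7A1 and COX8B are the isoforms of heart, muscle and brown fat, COX6A2 that of heart and skeletal muscle, and COX7A2, COX8A and COX6A1 are their widespread counterparts. Cox7a1 read 11.07, 11.06 and 11.07 in WT and 10.98, 11.16, 10.89, 11.03 and 11.08 in the labelled knockouts (difference −0.04, −0.27 to 0.19, exact permutation p = 0.589). All 3 WT values lay inside the range of the other group. Cox8b read 11.30, 11.36 and 11.34 in WT and 11.26, 11.36, 11.21, 11.34 and 11.36 in the labelled knockouts (−0.03, −0.24 to 0.19, exact permutation p = 0.554). Of the widespread partners, Cox7a2 differed by 0.0011 (−0.24 to 0.24), Cox8a by 0.04 (−0.18 to 0.26) and Cox6a1 by 0.04 (−0.17 to 0.25). Cox6a1 lay between 12.77 and 12.92 in all 8 arrays.

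Cox6a2 had the widest range of the 91 genes. It read 7.85, 6.58 and 5.30 in WT and 6.01, 4.36, 5.84, 6.96 and 6.44 in the labelled knockouts, a span of 3.49 log2. Both the highest and the second lowest value belonged to WT. The group difference was −0.66 (−2.10 to 0.79, exact permutation p = 0.429), it was −0.02 without WT replicate 1, −0.27 without Abhd15 KO replicate 2 and 0.37 without both, and no direction can be read from it.

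**Figure D4:**
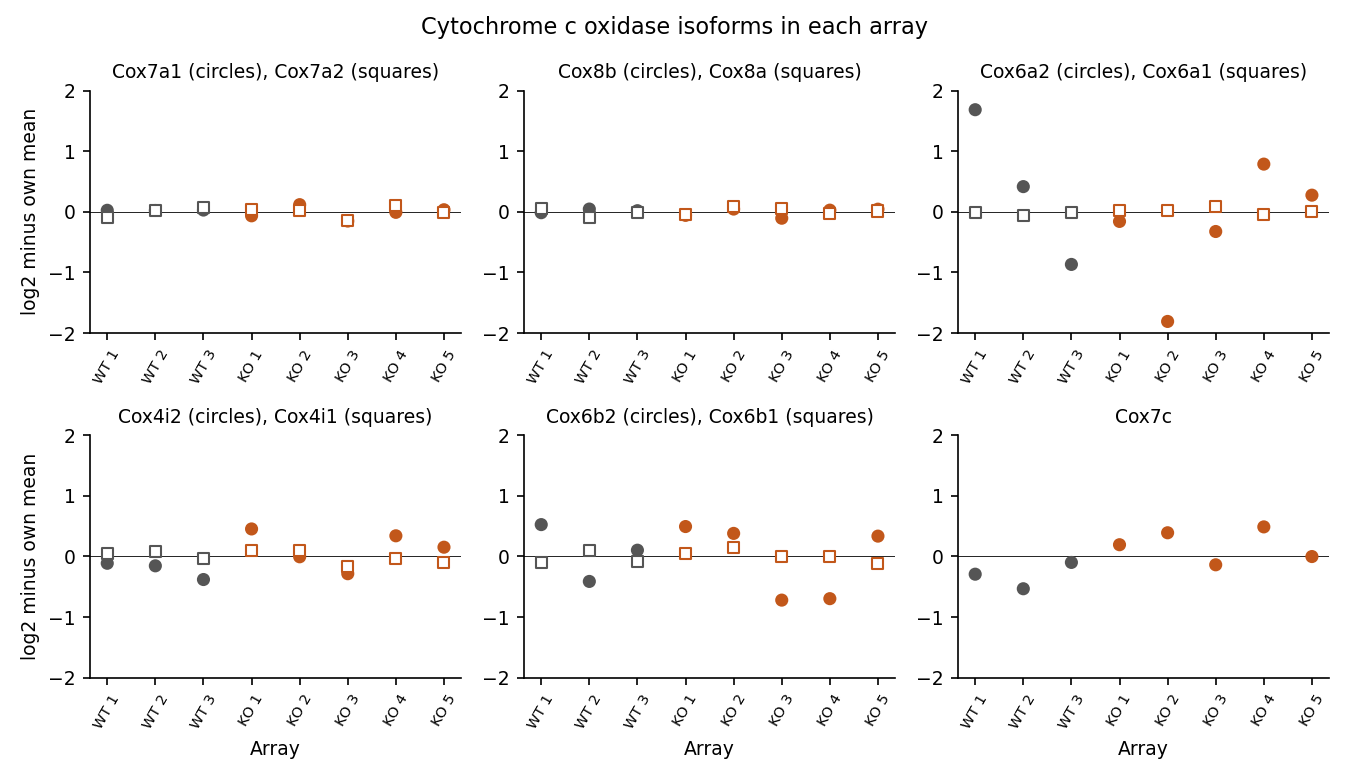
Values of 5 isoform pairs of complex IV and of Cox7c in each of the 8 arrays (log2 minus the gene's mean over arrays), WT in grey and the labelled knockouts in orange. The Cox7a and Cox8 pairs stay near 0 in every array, while Cox6a2 spans 3.49 log2.

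The arrays do not allow the level of 1 isoform to be set against another, since probe sets differ in their response, but the change of the log2 difference within a pair can be compared between arrays. For Cox7a1 over Cox7a2 this change was −0.04 (95% confidence interval −0.21 to 0.13) and for Cox8b over Cox8a −0.06 (−0.23 to 0.10). The intervals of the pairs are ordinary t intervals with a pooled variance and not limma's, so they cannot be set beside those of single genes. They carry no correction for the number of pairs. Over all 8 arrays these within-array differences spanned 0.24 and 0.31 log2. For Cox6b2, known as the testis isoform, over Cox6b1 it was −0.15 (−1.21 to 0.90) and for Cox6a2 over Cox6a1 −0.70 (−2.66 to 1.26). Cox4i2, the isoform of lung and of low oxygen, read 3.44, 3.40 and 3.17 in WT and 4.01, 3.55, 3.27, 3.89 and 3.71 in the labelled knockouts, close to the dim limit. Over Cox4i1 it was 0.40 higher in the latter (0.03 to 0.77, exact permutation p = 0.0357). All 5 of those arrays lay above all 3 WT arrays for this pair, with the lowest at −0.12 and the highest WT array at −0.16 around the mean of the 8. The exact permutation p was 0.179 after Benjamini-Hochberg adjustment over the 5 pairs, and 0.643 for the other 4, so that none passed. The pair of Cox7b2 and Cox7b was not tested because Cox7b2 was dim.

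The values of Cox6a2 followed the skeletal muscle genes across the mice. Over the 8 arrays, ranks of Cox6a2 and of the mean of 32 muscle genes were the same (Spearman rho = 1, exact two-sided permutation p = 4.96e-05, since the reversed order counts too). Pearson r was 0.993 (exact two-sided permutation p = 2.48e-05). Each is the smallest p that its own statistic can give here. After Benjamini-Hochberg adjustment over the 11 isoforms examined the exact permutation p was 0.000546 for rho and 0.000273 for r. Without the 2 arrays farthest from the median of the muscle mean, WT replicate 1 and Abhd15 KO replicate 2, r was 0.992 over 6 arrays. A unit of the muscle mean went with 0.98 log2 of Cox6a2. No r is given within a genotype, as neither has 6 arrays.

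No such relation was found for the isoforms that muscle shares with brown fat. Cox7a1 had r = −0.22 (exact permutation p = 0.626) and Spearman rho = −0.26, and Cox8b had r = −0.07 (exact permutation p = 0.872) and rho = −0.04. None of the 10 other isoforms passed after adjustment (the lowest was 0.317 for the rho of Cox6a1, exact permutation test). Among the 90 genes Cox6a2 alone (1.11%) had r above 0.8 with the muscle mean, against 1.68% of all genes tested. The latter share takes in the 32 muscle genes that make up the mean. With the muscle mean as a covariate the group difference of Cox6a2 was −0.15 (−0.43 to 0.12) in place of −0.66. All 32 muscle genes were lower on average in the labelled knockouts, by a median of 0.54 log2 with 0 past the threshold, and 7 of them were at or below the dim limit in at least 1 array. That direction rested on WT replicate 1: without it 23 of the 32 were higher in the labelled knockouts, with a median of 0.17. Without Abhd15 KO replicate 2 the median was −0.11 and 25 were lower, and without WT replicate 3 it was −1.32. In a piece of tissue, fewer cells of a type and less RNA per cell cannot be told apart.

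**Figure D5:**
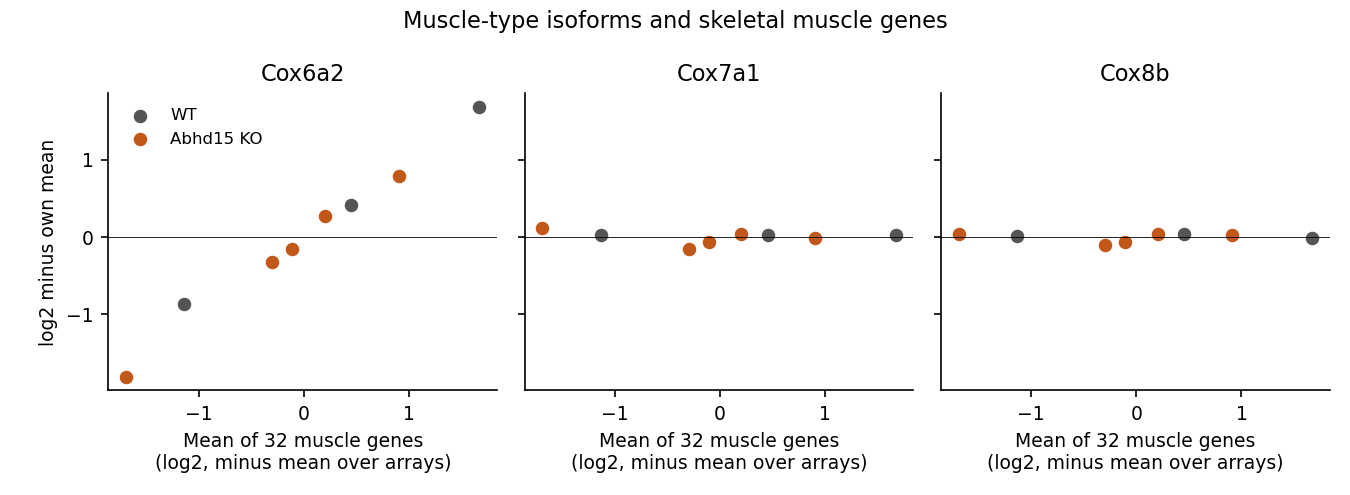
Cox6a2, Cox7a1 and Cox8b (log2 minus own mean) against the mean of 32 skeletal muscle genes (log2 minus its mean over arrays) in the 8 arrays. Cox6a2 rises with the muscle mean (fitted slope 0.98), while Cox7a1 and Cox8b stay close to 0.

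Promoter sequence is shown for the isoforms whose levels were set out above, to print the letters behind the motif counts that follow. Bases upstream of the start site are shown for 5 isoforms in RefSeq's promoter table (GRCm38.p6), the Cox7a and Cox8 pairs and Cox6a1, as the 180 bases before the start on the gene's strand. They are, in order, chr7:30183991-30184170 (+), chr9:79759854-79760033 (−), chr7:140900447-140900626 (−), chr19:7217617-7217796 (−) and chr5:115348959-115349138 (−). Capitals mark the NRF1 motif and the GABP motif, binding sequences of factors known to act on respiratory chain genes.
Cox7a1: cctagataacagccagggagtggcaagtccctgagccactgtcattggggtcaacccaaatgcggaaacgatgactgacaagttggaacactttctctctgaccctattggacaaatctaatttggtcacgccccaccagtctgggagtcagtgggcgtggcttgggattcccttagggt
Cox7a2: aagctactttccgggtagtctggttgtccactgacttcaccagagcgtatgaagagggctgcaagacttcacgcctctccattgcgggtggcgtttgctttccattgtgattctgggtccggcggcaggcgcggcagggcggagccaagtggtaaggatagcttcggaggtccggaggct
Cox8b: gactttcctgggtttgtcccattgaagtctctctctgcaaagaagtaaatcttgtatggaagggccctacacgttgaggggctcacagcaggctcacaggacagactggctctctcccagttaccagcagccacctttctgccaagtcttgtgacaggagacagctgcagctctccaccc
Cox8a: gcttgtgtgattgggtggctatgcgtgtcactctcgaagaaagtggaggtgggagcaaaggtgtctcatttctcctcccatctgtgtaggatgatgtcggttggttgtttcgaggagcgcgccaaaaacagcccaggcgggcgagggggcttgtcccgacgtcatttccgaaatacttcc
Cox6a1: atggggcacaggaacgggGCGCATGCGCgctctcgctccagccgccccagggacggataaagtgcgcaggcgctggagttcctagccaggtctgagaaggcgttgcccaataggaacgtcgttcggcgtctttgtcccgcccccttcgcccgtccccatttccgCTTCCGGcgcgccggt
Of these 5 stretches the Cox6a1 one alone holds either motif whole. Cox6b1, Cox6b2, Cox7b and Cox7b2 are in the table too and are not printed, and Cox6b1 has a GABP motif at position −28 from its start site. Cox8a has a GABP motif that runs across the start site and one after it, and neither is in capitals. Cox6a2 had no entry in the table.

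Over the chain as a whole, 4 motifs were counted on both strands in windows from 250 bases before to 50 after the start, and a window was counted once for each motif. The NRF1 motif overlaps its own reverse complement. The table held 77 of the 93 genes, with 82 windows. The NRF1 motif GCGCATGCG was in 13.4% of these windows, against 1.75% of all 32851 windows and 3.40% of the windows of tested protein-coding genes. Its 11 genes were Ndufa8, Ndufa11, Ndufaf4, Ndufaf5, Uqcrc1, Uqcr11, Cycs, Cox6a1, Atp5g2, Atp5k and Atp5l. The GABP motif CCGGAAG was in 26.8%, against 8.86% and 15.96%, and the YY1 motif AAGATGGC in 12.2%, against 2.75% and 4.05%. The half-site of ERRalpha, AAGGTCA, was in 7.32%, against 4.72% and 3.19%. It occurred in 4 of the 15 complex V genes listed (Atp5e, Atp5g3, Atp5k and Atp5l). At least 1 of the 4 motifs was in 50.6% of the genes listed, 18.9% of all genes and 28.01% of tested protein-coding genes. A match is a description of these letters and not of a binding site.

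Genes that work with these subunits were taken from lists. The 10 mitochondrially encoded subunits measured, of complexes I, III and IV and without COX2, had 5 higher and 5 lower with a median of −0.0024. Their residual SD had a median of 0.04 log2, and COX1, the catalytic subunit of complex IV, lay between 12.80 and 12.92. Among 41 assembly factors outside the prefixes 22 were higher and 19 lower (median 0.01), of which the complex I factor Dmac1 had the lowest p, at 0.20 (−0.08 to 0.48). Among 18 regulators 9 were higher and 9 lower (median −0.0003). Of these the coactivators Ppargc1a and Ppargc1b differed by 0.29 (−0.29 to 0.87) and 0.17 (−0.15 to 0.49), and Yy1 by −0.20 (−0.44 to 0.05). Ubiquinone synthesis and electron entry genes had 10 of 19 higher (median 0.06), with Coq3 at −0.25 (−0.53 to 0.03), and citric acid cycle genes 8 of 15 (median 0.01), with citrate synthase (Cs) at 0.15 (−0.08 to 0.39). With limma 0 genes passed in any of these lists, as for all genes tested (0%).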

How the data were processed

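Expression was measured in brown fat of 8 mice, 1 array each, from 200 ng of RNA. The authors deposited log2 values per probe set, made with RMA and oligo per the submitters' processing notes; the design text, per the labels, names Expression Console. RMA forces arrays to one distribution, which would hide a shift common to most genes. Values ran from 0.49 to 13.3, with array medians of 3.00 to 3.04 and correlations of 0.964 to 0.975. With 1 mouse per array, p-values rest on the spread between mice, and the number of arrays limits the precision. For each gene limma takes part of that spread from all genes tested. For genes of very low spread, such as Sdha, its intervals are thus wider than the gene's own values would give.

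Of 41345 probe sets, 23521 carry 1 symbol in the platform annotation. The dim limit, 2.88 log2, is the 95th percentile of 1400 olfactory and vomeronasal receptor probe sets and had to be passed in at least 3 arrays. The 13223 genes left were fitted in limma 3.58.1 (R 4.3.3; lmFit, eBayes; Benjamini-Hochberg adjusted p under 0.05), and single values were tested by exact two-sided permutation over 56 splits. The limma fit was tested on simulated data, and the permutation p on a constructed pattern of separated groups.

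The genes and lists were chosen with earlier results of these data known. Named genes are the 6 of lowest p in complex I, 4 in IV, 4 in V, 3 in III and 2 assembly factors, the Sdh genes, Cyc1, Cycs, the isoform pairs and the 5 of largest residual SD; others were named after their values were seen. The assignment of genes to complexes, the 9 log2 limit, the fold limit for intervals, the r limit of 0.8 and the promoters printed were also chosen after values were seen. A further promoter motif, the TATA box, was searched once and is not reported, as it was not planned. Probe sets can take in processed pseudogenes, and of 11 genes with several probe sets 4 had probe sets that differed in direction. Alternatives changed the block, filter, scaling, fitting, weights, probe sets, a muscle covariate, the threshold and the arrays.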

Additional observations from a re-analysis of the deposited data

How the results depend on the processing

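Over 20 alternatives 0 respiratory chain genes and 0 of all genes passed the limma threshold. From 0 to 3 members had an unadjusted limma p under 0.05, and members higher numbered 38 to 54. Atp5g1 was included in both counts where tested. The share of all genes with an unadjusted limma p under 0.05 was 3.99% in the fit reported above. It is not given for each alternative, so the 0 to 3 members have no matching background and no result is read from them. The lowest limma adjusted p of any gene over the alternatives was 0.181. With the replicate number as a block the count past the threshold stayed 0 and the median difference was 0.0013. Same-numbered arrays had deviations correlating at −0.258, −0.098 and 0.0187. These values cannot decide whether the numbers pair the mice, as the labels give no litter, cage or harvest day. The median difference ranged from −0.0128 to 0.0187 with each array left out and was −0.0203 without WT replicate 1 and Abhd15 KO replicate 2.

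Leaving out that pair also turned Cox6a2 over Cox6a1 (0.324), Cox6b2 over Cox6b1 (0.038), Cox6a2 (0.371), Cyc1 (−0.0433), Cycs (−0.003), Cox7a2 (−0.0543), Cox6b2 (0.0075) and Cox6b1 (−0.0305). Leaving out WT replicate 2 and Abhd15 KO replicate 1 turned Sdha (0.00225), Sdhb (0.0315), Sdhc (−0.0125) and Cox8b (0.00075). Cyclic loess turned Cycs (−0.00785) and Cox7a2 (−0.0129), and the muscle covariate Cox7a2 (−0.00845). With each array left out, values that turned ranged from −0.0754 to 0.0091 for Cox7a1 over Cox7a2, −0.46 to 0.11 for Cox6b2 over Cox6b1, −0.356 to 0.113 for Cox6b2, −0.0496 to 0.0382 for Cox7a2, −0.00892 to 0.0095 for Sdha, −0.0377 to 0.0193 for Sdhb, −0.0015 to 0.0518 for Sdhc, −0.0128 to 0.0572 for Cyc1, −0.004 to 0.0275 for Cycs, −0.0133 to 0.0633 for Cox7b, −0.0029 to 0.0731 for Cox8a and −0.365 to 0.0238 for Ndufaf2. In all, 404 of 442 values for 34 named genes kept their direction. The causes were not tested. Low signal limits Cox4i2, Cox6b2, Ndufs5 and Atp5g1.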

Other observations

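Markers of other cell types that the tissue could hold had the following values. Endothelial genes were higher in 12 of 12 cases in the labelled knockouts (median 0.16), macrophage genes were lower in 11 of 12 (median −0.19), and white adipocyte genes were lower in 4 of 7 (median −0.30). Of the white adipocyte genes 2, Lep and Hoxc9, were at or below the dim limit in at least 1 array. Hoxc9, counted as lower, had a mean of 2.67 in the labelled knockouts, under that limit. Of all 13223 genes tested 6837 were higher and 6386 lower (median 0.01). With limma 0 genes of these lists passed the threshold. At an unadjusted limma p under 0.05 there were 2 of 12 macrophage, 1 of 7 white adipocyte and 0 of 12 endothelial genes. The share over all genes tested was 3.99%. The mean of the macrophage genes was 5.07 to 5.64 log2 in WT and 4.62 to 5.47 in the labelled knockouts, and that of the endothelial genes 6.77 to 7.11 and 6.85 to 7.31. With each gene centred, the endothelial mean was lowest in WT replicate 2 (−0.26) and highest in Abhd15 KO replicate 2 (0.28). The macrophage mean was highest in WT replicate 2 (0.44) and lowest in Abhd15 KO replicate 2 (−0.57). These counts and medians were not taken without those arrays, so they may rest on them. The part of these cell types in the values of the respiratory chain was not tested.

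The gene for the catalytic subunit of ATP synthase, Atp5b, had the second highest correlation with the muscle mean among the 91 genes (r = 0.65 over 8 arrays), and Ndufb10 the lowest (r = −0.81). Both are descriptions chosen after their values were seen, with no test.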
